A study of Homo sapiens with 24 samples.

Results

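The genes described here are 52 nuclear-encoded subunits of the mitochondrial respiratory chain, out of 37247 gene ids measured in MDA-MB-231, a human breast cancer cell line. They were chosen by name and not by any measured value. All 52 gene symbols matched 1 gene id each, and all 52 passed the filter on low counts that left 14986 genes for testing. By the complex they belong to, 22 were subunits of complex I (NADH dehydrogenase), 4 of complex II (succinate dehydrogenase), 7 of complex III (cytochrome bc1), 11 of complex IV (cytochrome c oxidase) and 8 of complex V (ATP synthase). NDUFA4 carries a complex I name but was counted with complex IV, where the protein is now placed.

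RNA was sequenced in 24 libraries, 3 for each of 8 groups formed by 4 lines and 2 cultures. The lines were a control and 3 lines in which overexpression (OX in the labels) of MRTF-A, myocardin-related transcription factor A, was induced. They are labelled WT, dSAP and dSRF MRTF-A OX, and the labels do not spell out the last 2 names. Every group, the control included, is labelled as given doxycycline at 1 ug/ml for 72 h. The 2D cells grew on plates, and the 3D cells grew over matrigel, which is an extract rich in basement membrane proteins, with 2% matrigel in the medium. The labels do not say whether a line is 1 clone or a pool, or whether the 3 libraries of a group came from separate cultures, so the p-values measure the spread between these libraries, which may be technical.

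The respiratory chain sits in the inner mitochondrial membrane. Complexes I and II pass electrons from NADH and succinate to ubiquinone, complex III passes them on to cytochrome c, and complex IV passes them to oxygen. Complexes I, III and IV pump protons as they do so, and complex V uses the resulting gradient to make ATP. Complex II is built from nuclear-encoded subunits alone, while each of the others also holds subunits encoded by the mitochondrial genome. Cancer cells in culture often draw much of their ATP from glycolysis, but they still depend on the chain for ubiquinone-linked reactions and for aspartate synthesis.

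Total counts per library ran from 13968829 to 23023415. The lowest count of any member in any library was 106 (NDUFB9). MRTFA, the gene that was overexpressed, stood at 28.8 to 39.1 CPM (counts scaled to library size with the trimmed mean of M-values) in the 6 control libraries and at 3170 to 10716 CPM in 17 of the 18 MRTF-A libraries. The remaining one, 3D dSRF library 1, held 664 CPM, against 4840 and 4857 in the other 2 libraries of its group. That library stands apart for the subunit genes too: of the 52 members, 44 were highest in it among the 3 libraries of the group. Fold changes and counts for the 3D dSRF group against control are therefore followed by their values without it. The genotype field of the labels disagrees with the titles for 16 of 24 libraries, and groups follow the titles. Of the markers of this mesenchymal-like line, VIM reached 1331 to 2372 TPM (transcript abundance corrected for length) and CD44 511 to 1473 TPM over all libraries. Of 4 such markers (VIM, CD44, EGFR and AXL), 3 were lower and 1 higher in 2D dSRF than in control, by the edgeR test described below. Their median log2 fold change was -0.51. In 3D dSRF 1 was lower and none higher, and 4 were lower without library 1. The part of this in the results for that line was not tested. The estrogen and progesterone receptor genes ESR1 and PGR, which this line is known to lack, stayed at or below 0.23 TPM, and the luminal marker CDH1 at or below 1.98 TPM. EPCAM, another luminal marker, ran from 25 to 264 TPM and was at 165 to 183 TPM in 2D dSRF and at 104, 248 and 264 TPM in 3D dSRF, and its part in the results for that line was not tested. PTPRC and MS4A1, markers of leukocytes and B cells, stayed at or below 0.0417 TPM, and CD14 ran from 3.41 to 18.2 TPM.

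The subunits differed widely in level, compared here per transcript length as mean TPM over the 24 libraries. COX8A, a small subunit of complex IV, was highest at 1014 TPM (629 to 1404 over libraries). COX7C followed at 716 TPM and COX6A1 at 546 TPM, both also small complex IV subunits. In complex I the highest was NDUFC2, a membrane-arm subunit, at 615 TPM, and the lowest was NDUFB9 at 33.7 TPM. The iron-sulfur subunit NDUFS1, the largest protein of complex I, had 54.6 TPM. In complex V the catalytic beta and alpha subunits ATP5F1B and ATP5F1A led with 463 and 449 TPM and ATP5F1D, the delta subunit, was lowest with 168 TPM. In complex III, UQCRQ had 406 TPM and the core subunit UQCRC2 65.8 TPM. Complex II was the most even, from SDHB at 121 TPM to SDHD at 211 TPM. In complex IV the lowest was NDUFA4 at 79.4 TPM.

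Summed over members, complex IV gave the largest total in every group although it has fewer members than complex I. In 2D control cells the sum was 4731 ± 108 TPM (SD, n = 3) for complex IV, 3131 ± 65.7 TPM for complex I, 2609 ± 40.8 TPM for complex V, 1275 ± 16.4 TPM for complex III and 640 ± 7.37 TPM for complex II. The complex I sum was higher in dSRF than in control, at 3303 ± 64.3 TPM in 2D dSRF. In 3D it was 3305, 3168 and 3195 TPM in dSRF and 2830, 2815 and 2852 TPM in control. The mean sums of complexes II, III, IV and V were lower in dSRF than in control in both cultures. All 52 together made up 1.24% of TPM in 2D control, 1.13% in 3D control and 1.02% in 3D WT, the lowest group. In raw counts, which are not corrected for length, the members took 0.434% of each 2D control library and 0.363% to 0.374% of the 3D WT libraries. The 3 libraries of 3D dSRF held 0.411%, 0.352% and 0.361%, so library 1 again lay above the others.

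**Figure D1:**
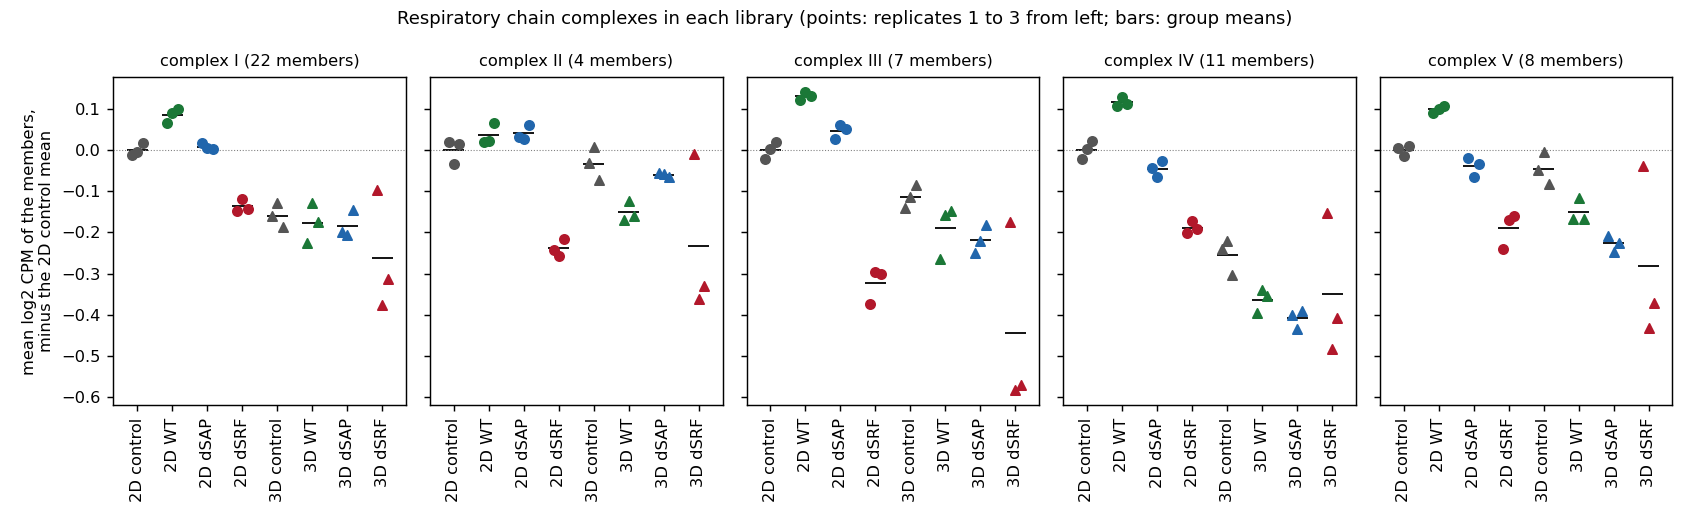
Mean log2 CPM over the members of each complex in each library, minus the mean of the 3 libraries of 2D control (y axis, log2 units), for the 8 groups (x axis). Points are libraries (circles 2D, triangles 3D, colour by line) and bars are group means. All 3 libraries of 2D dSRF lie below all of 2D control in every complex, complex IV is lower in every 3D library than in any 2D control library, and 3D dSRF library 1 lies above the other 2 of its group in every panel.

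The dSRF line differed most from its control. In 2D, 25 of 52 members (48.1%) were lower in dSRF and 5 (9.62%) higher, in a comparison where 31.5% of all 14986 genes were lower and 34.5% higher (edgeR quasi-likelihood test, adjusted p under 0.05). In 3D, 26 (50% of members, against 31.3% of all genes) were lower and 10 (19.2%, against 35.1%) higher. In either direction 30 members were called in 2D and 36 in 3D, where 66% and 66.4% of all genes were, so the members stood apart from the background in their split toward lower levels and not in the share that was called. In such bulk libraries, a lower level in every cell and a loss of the cells that express a gene cannot be told apart. The median log2 fold change over the 52 was -0.17 in 2D and -0.23 in 3D, against 0.02 over all genes in both. Analysed as log2(TPM + 1), the 2D split was 18 lower and 12 higher, and the 3D split 23 and 13. On that scale 3640 of all 14986 genes were lower and 5303 higher in 2D, and 4081 and 5049 in 3D. Without 3D dSRF library 1, the 3D split was 31 lower and 7 higher, with a median of -0.38.

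Of the 25 members lower in 2D dSRF, 22 were also lower in 3D dSRF (88% of the 2D set and 84.6% of the 3D set). Without library 1 of 3D dSRF it was 24 (96% of the 2D set and 77.4% of the 31 then lower in 3D). The matching overlap over all genes is not given here, so this overlap cannot be read as particular to the members. NDUFA6, NDUFC2 and NDUFS8 were higher in both, and no member was called in opposite directions. In complex III, 5 of 7 members were lower in 2D and 6 of 7 in 3D, and none was higher in either (medians -0.28 and -0.30, and -0.44 in 3D without library 1). In complex V, 5 of 8 were lower and 1 higher in 2D, and 4 were lower and none higher in 3D (medians -0.22 and -0.18). Without library 1, 6 were lower in 3D (median -0.33). Complex II had 2 of 4 lower in both cultures, SDHA and SDHD, and 1 higher in 3D, which was none without library 1. Complex I had 9 of 22 lower and 4 higher in both cultures, and 12 lower and 4 higher in 3D without library 1. Complex IV was split: in 2D 4 of 11 were lower and none higher (median 0.01), and in 3D 5 were lower and 5 higher (median 0.17). Without library 1, 5 complex IV members were lower in 3D and 3 higher (median 0.04).

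**Figure D2:**
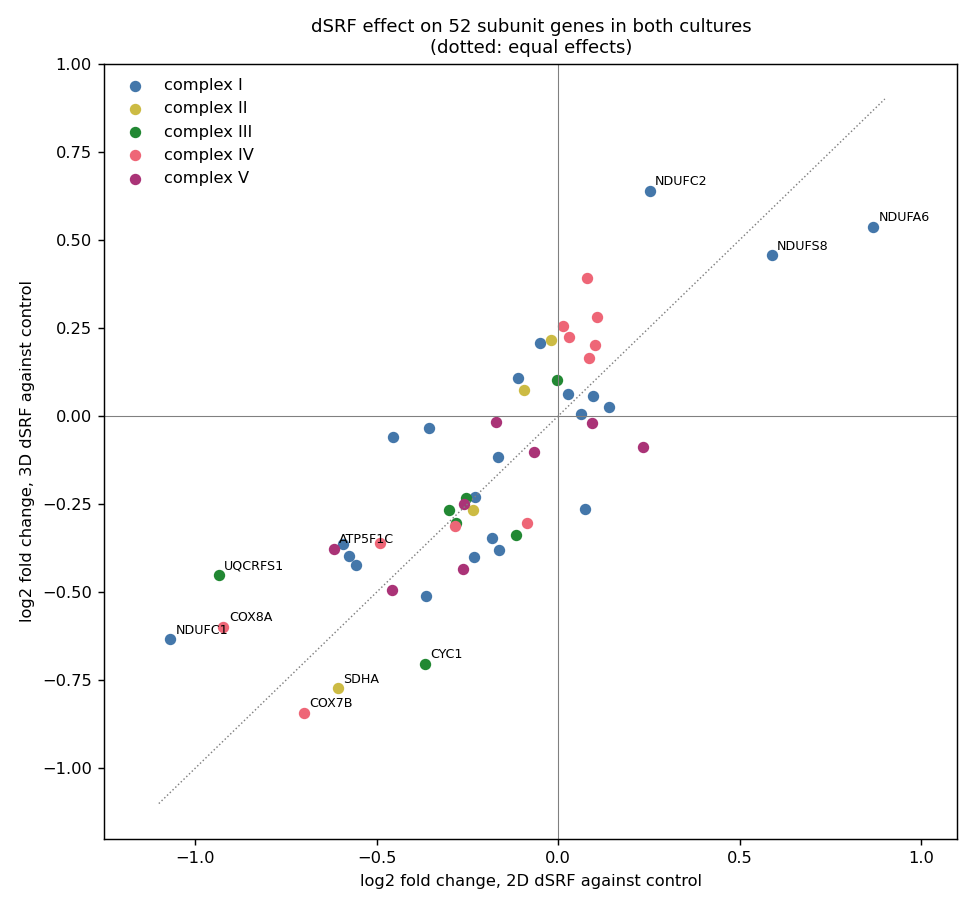
Log2 fold change of the 52 members in dSRF against control, in 2D (x axis) and in 3D (y axis), coloured by complex, with the line of equal effects dotted. NDUFC1, UQCRFS1, COX8A, COX7B and SDHA lie at the lower left and NDUFA6, NDUFS8 and NDUFC2 at the upper right, while 6 complex IV members lie above 0 on both axes.

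In complex I the largest fall was that of NDUFC1, a small membrane-arm subunit. Its level was 25.4, 28.1 and 24.4 CPM in the 2D control libraries and 11.1, 12.1 and 13.8 CPM in 2D dSRF. In 3D it was 16.5, 16.0 and 14.2 CPM in control and 12.4, 8.92 and 8.68 CPM in dSRF. The dSRF libraries lay below all control libraries in both cultures. The log2 fold change was -1.07 ± 0.13 (SE; adjusted p = 4.94e-07) in 2D and -0.63 ± 0.13 (adjusted p = 0.000246) in 3D, or -0.83 without library 1. NDUFC1 shares its locus on chromosome 4 (139266880 to 139302551, minus strand, GRCh38, GENCODE 29) with NAA15 on the opposite strand, a gene with many more counts. The kit is stranded, but the strand setting of the counting is not stated, so reads of the pair may be mixed. The same limit holds for NDUFA2, NDUFB3, NDUFB8, NDUFS1, NDUFS3, COX6C and ATP5PF. Each overlaps a gene on the opposite strand with more counts than its own, such as VPS13B for COX6C and HIF1AN for NDUFB8. NDUFB9, NDUFB3 and NDUFA10 followed in 2D with -0.59, -0.57 and -0.56, and NDUFB9, NDUFB3 and NDUFA10 were also lower in 3D, at -0.36, -0.40 and -0.42, or -0.58, -0.60 and -0.57 without library 1. NDUFS3, a core subunit of the peripheral arm, was lower by a log2 fold change of -0.36 in 2D and -0.51 in 3D, or -0.63 in 3D without library 1.

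NDUFA6, an accessory subunit of the peripheral arm, stood at 25.7, 28.6 and 26.9 CPM in 2D control and at 50.9, 51.9 and 45.4 CPM in 2D dSRF. In 3D it was 31.0, 29.9 and 30.4 CPM in control and 41.8, 41.4 and 49.3 CPM in dSRF, again without overlap. Its log2 fold change of 0.87 ± 0.09 in 2D (adjusted p = 3.47e-08) and 0.54 ± 0.09 in 3D (adjusted p = 1.41e-05) was the largest rise of any member in 2D. NDUFS8, which carries 2 of the iron-sulfur clusters of complex I, rose by 0.59 ± 0.06 and 0.46 ± 0.06. Without library 1 the 3D values were 0.58 for NDUFA6 and 0.53 for NDUFS8. NDUFC2, also of the membrane arm, rose. It held 78.3, 84.6 and 81.1 CPM in 3D control and 134, 122 and 125 CPM in 3D dSRF, a log2 fold change of 0.64 ± 0.05 (adjusted p = 1.5e-09), after 0.25 ± 0.05 in 2D, and its 3D value without library 1 was 0.60. The flavoprotein subunit NDUFV1, which takes the electrons from NADH, was called in none of the 17 comparisons made here and ran from 83.8 ± 7.43 CPM (2D control) to 94.8 ± 6.13 CPM (3D dSRF). Without library 1 it was called higher in 3D dSRF than in 3D WT (0.16 ± 0.06, adjusted p = 0.0141).

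In complex II the flavoprotein subunit SDHA fell, from 165, 154 and 162 CPM in 2D control to 105, 102 and 110 CPM in 2D dSRF. In 3D it went from 186, 192 and 189 CPM to 142, 95.1 and 93.6 CPM, and library 1 was the one at 142. The log2 fold change was -0.61 ± 0.10 in 2D and -0.77 ± 0.10 in 3D (adjusted p = 2.56e-05 and 1.11e-06), or -1.003 in 3D without library 1. SDHA has 3 annotated pseudogenes that hold 19% of the combined counts, so its level is uncertain. The iron-sulfur subunit SDHB stayed at 61.9 ± 1.58 CPM in 2D dSRF against 62.8 ± 1.63 CPM in control. In 3D it was called higher in dSRF (0.22 ± 0.08, adjusted p = 0.0174), with 77.6 CPM in library 1 and 57.6 and 62.2 CPM in the others against 55.2 to 57.8 CPM in control. That call was lost without library 1. The membrane anchor SDHD fell by 0.24 ± 0.08 in 2D and by 0.27 ± 0.08 in 3D on the log2 scale (-0.42 in 3D without library 1), and the other anchor, SDHC, did not pass the test in either culture.

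In complex III the Rieske iron-sulfur protein UQCRFS1 fell most in 2D. Control libraries held 123, 140 and 135 CPM and 2D dSRF libraries 62.0, 68.7 and 77.8 CPM. In 3D the values were 88.2, 88.3 and 95.3 CPM in control and 82.8, 58.9 and 56.8 CPM in dSRF. The groups did not overlap in either culture. The log2 fold change was -0.94 ± 0.10 (adjusted p = 1.38e-07) in 2D and -0.45 ± 0.10 (adjusted p = 0.00062) in 3D, and the effects differed between the cultures (0.48 ± 0.14, adjusted p = 0.0155). Without library 1 the 3D value of UQCRFS1 was -0.65 ± 0.07 and the difference 0.28 ± 0.09 (adjusted p = 0.0109). CYC1, which carries the heme of cytochrome c1, showed the larger fall in 3D: 81.1, 77.1 and 88.0 CPM in control and 71.1, 40.8 and 39.0 CPM in dSRF, a log2 fold change of -0.70 ± 0.14 (adjusted p = 0.00022) against -0.37 ± 0.14 in 2D (adjusted p = 0.0296). Without library 1 the 3D value was -1.05. The core subunits UQCRC1 and UQCRC2 were lower in both cultures by between -0.27 and -0.30, and UQCRH, the hinge subunit, by -0.26 and -0.23. Without library 1 the 3D values were -0.41, -0.44 and -0.37. UQCRQ, the ubiquinone-binding subunit with the highest level in the complex, was called in neither culture.

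In complex IV 4 members fell in both cultures: COX8A, COX7B, COX7C and NDUFA4. COX8A stood at 172, 174 and 180 CPM in 2D control and 93.7, 90.4 and 93.3 CPM in 2D dSRF. In 3D it held 127, 129 and 120 CPM in control and 104, 70.4 and 73.4 CPM in dSRF. The log2 fold changes were -0.92 ± 0.10 (adjusted p = 6.22e-08) and -0.60 ± 0.10 (adjusted p = 1.49e-05), the latter -0.81 without library 1. COX7B, another small subunit, fell further in 3D, from 67.6, 70.6 and 67.3 CPM to 46.3, 33.4 and 34.8 CPM (-0.84 ± 0.09, adjusted p = 6.86e-08), after -0.70 ± 0.09 in 2D, and its 3D value without library 1 was -1.01. COX5A was lower in 3D. Against these, 5 nuclear subunits around the catalytic core were called higher in 3D dSRF and not in 2D, namely COX4I1, COX5B, COX6A1, COX6C and COX7A2. The largest of these rises was COX6A1, with 95.0, 97.7 and 91.0 CPM in 3D control and 126, 120 and 126 CPM in 3D dSRF (0.39 ± 0.05, adjusted p = 5.06e-07). In 2D it stood at 131, 123 and 129 CPM in control and 135, 140 and 131 CPM in dSRF, and the effect differed between cultures (0.31 ± 0.07, adjusted p = 0.0015). The COX6A1 values without library 1 were 0.38 in 3D and 0.30 for that difference. COX6C and COX7A2 lost their call without library 1, and COX4I1, COX5B and COX6A1 did not.

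In complex V the gamma subunit ATP5F1C, part of the central stalk that turns within the catalytic head, fell from 149, 147 and 150 CPM to 91.8, 97.6 and 101 CPM in 2D (-0.62 ± 0.09, adjusted p = 9.18e-06). In 3D it went from 129, 129 and 123 CPM to 123, 82.8 and 86.8 CPM (-0.38 ± 0.09, adjusted p = 0.00138), and library 1 alone touched the control range. Without it the 3D value of ATP5F1C was -0.59. The alpha subunit ATP5F1A, at 391 ± 6.81 CPM in 2D control, fell by 0.46 ± 0.08 in 2D and 0.49 ± 0.08 in 3D on the log2 scale (-0.66 in 3D without library 1). Its catalytic partner ATP5F1B fell less, by 0.17 ± 0.06 in 2D (adjusted p = 0.0129), and was not called in 3D with all libraries, but was lower there without library 1 (-0.12 ± 0.04, adjusted p = 0.015). The peripheral stalk subunits ATP5PO and ATP5PF were lower in both cultures, at -0.26 and -0.44 for ATP5PO and -0.26 and -0.25 for ATP5PF, or -0.66 and -0.42 in 3D without library 1. ATP5PB was called in neither culture, but was lower in 3D without library 1 (-0.23 ± 0.04, adjusted p = 2.18e-05). ATP5F1D, which sits beside the gamma subunit in the central stalk, was the 1 member of complex V that was higher in 2D dSRF (40.3, 41.3 and 39.7 CPM in control and 47.9, 43.3 and 51.4 CPM in dSRF, 0.23 ± 0.08, adjusted p = 0.0107).

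**Figure D3:**
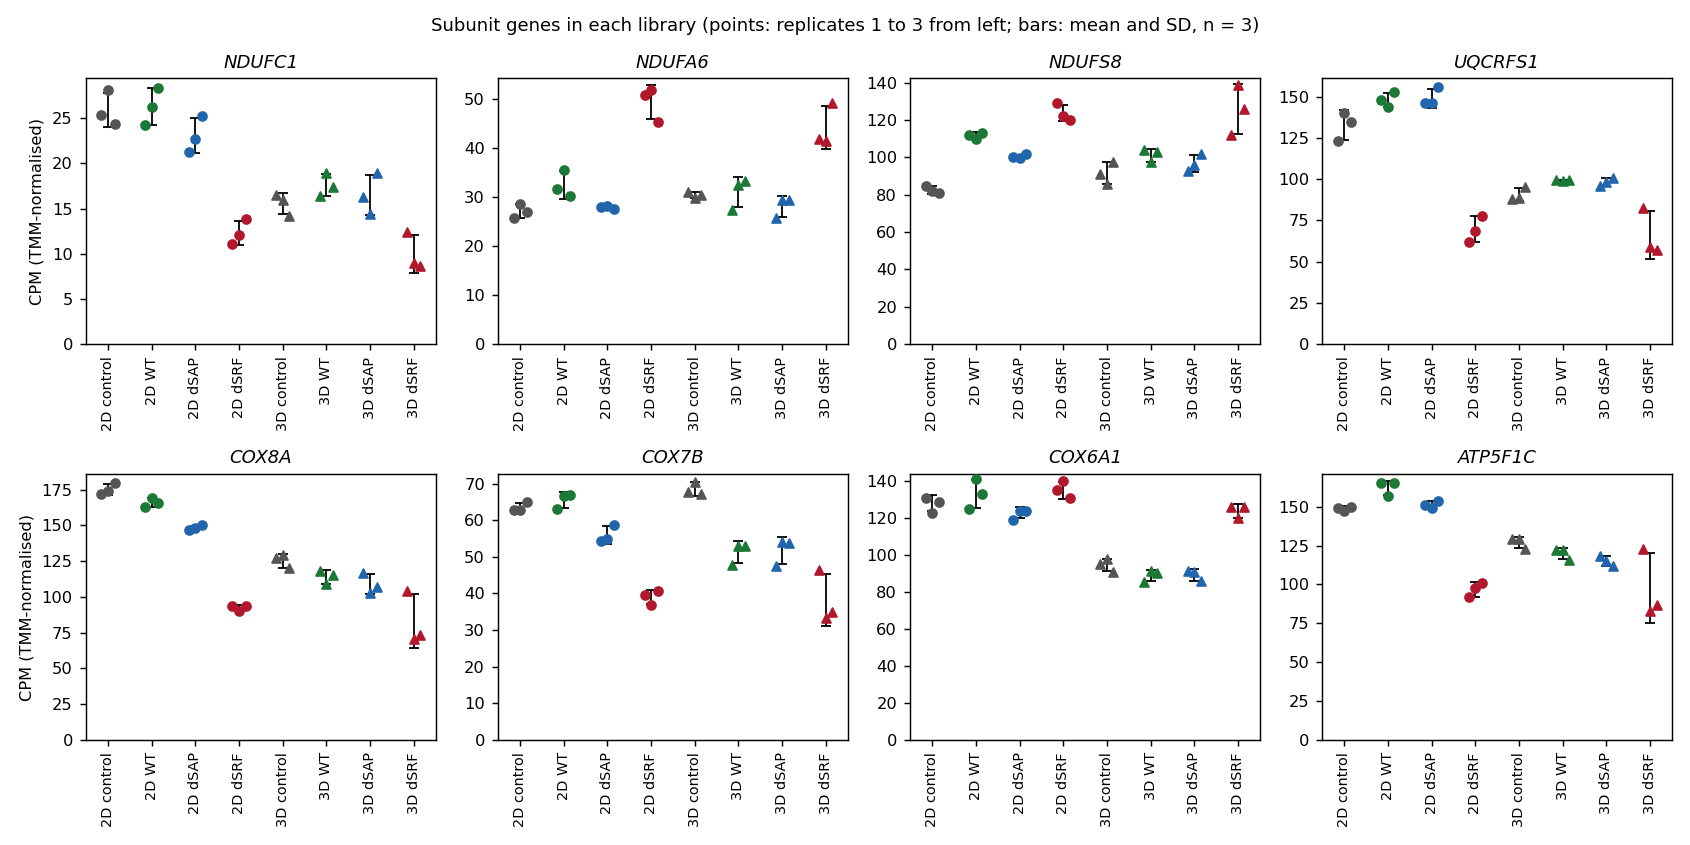
Level of 8 subunit genes in each library (y axis, TMM-normalised CPM from 0) in the 8 groups (x axis), with the mean and SD of 3 libraries as bars. NDUFC1, UQCRFS1, COX8A, COX7B and ATP5F1C are lower in 2D dSRF than in 2D control, NDUFA6 and NDUFS8 are higher, and COX6A1 is lower in 3D than in 2D in control, WT and dSAP and in dSRF is called so only when library 1 of 3D dSRF is left out (-0.14).

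Against WT rather than control, the dSRF line showed the same kind of split in 2D, with 31 members lower and 5 higher (30.4% of all genes lower, 33.6% higher). In either direction 64% of all genes were called. Both comparisons use the 2D dSRF libraries. NDUFC1 and UQCRFS1 were again lowest, both at -1.09, followed by COX8A at -0.84. In log2(TPM + 1) the split was 20 lower and 12 higher, where 2996 of all 14986 genes were lower and 6026 higher. On that scale SDHC changed direction (-0.26 ± 0.04 from counts, 0.11 from TPM). In 3D, 18 members (34.6%) were lower in dSRF than in WT and 12 (23.1%) higher. Of all genes, 31.6% and 34.2% were, and 65.9% in either direction. Without library 1, 33 (63.5%) were lower and 12 (23.1%) higher, against 36.3% and 36.5% of all genes. In log2(TPM + 1), 11 were lower and 18 higher, where 3612 of all 14986 genes were lower and 5384 higher. The direction of the majority in 3D dSRF against WT thus turned with the scaling, and on the TPM scale it was that of all genes. COX6A1 (0.48 ± 0.05), NDUFA6 (0.51 ± 0.09) and NDUFC2 (0.44 ± 0.05) were the largest rises and NDUFC1 (-0.81 ± 0.13) the largest fall. Without library 1 these values were 0.47, 0.55, 0.40 and -1.001, and COX5B at 0.42 then lay above NDUFC2. On that TPM scale the median over all genes shifted by up to 0.18 (2D dSRF against WT), where the median over members was -0.12.

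Promoter sequences were examined for letters bound by factors known to act on respiratory genes. Of the 52 members, 42 matched a RefSeq promoter (GRCh38.p14, 250 bases before to 50 after the first start listed for the gene), and the background was the promoters of 10823 tested genes. The letters searched, on both strands, were CGCATGCG for NRF1, CCGGAAG for the ETS family, to which GABPA belongs, TCAAGGTCA for the estrogen-related receptors, AAGATGGC for YY1, and the CArG box, the element that SRF binds. The NRF1 letters were in 6 of 42 promoters (14.3%, against 3.73% of the background), the ETS letters in 14 (33.3%, against 18.7%) and the YY1 letters in 9 (21.4%, against 5.14%). The estrogen-related receptor letters occurred in 1 (SDHD, 2.38% against 0.166%). A CArG box occurred in 1 as well (NDUFB6, 2.38% against 1.12%). Of the 22 members lower in dSRF in both cultures, 19 had a promoter, and 8 of these held NRF1 or ETS letters (17 of all 42 did). A match describes the letters and does not show binding.

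The 120 bases before the start are given for 4 genes, with any searched letters in capitals. The first 3 are complex IV genes that all hold the ETS letters but moved differently in dSRF: COX8A fell in both cultures, and COX6A1 and COX5B rose in 3D. The last is NDUFC1, the member with the largest fall in 2D dSRF, where none of the searched letters are in this window.
COX8A: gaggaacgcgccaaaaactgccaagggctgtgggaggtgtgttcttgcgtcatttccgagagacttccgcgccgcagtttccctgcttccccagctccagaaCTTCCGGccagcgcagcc
COX6A1: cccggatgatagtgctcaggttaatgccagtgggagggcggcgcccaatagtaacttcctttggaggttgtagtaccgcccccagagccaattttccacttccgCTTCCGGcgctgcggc
COX5B: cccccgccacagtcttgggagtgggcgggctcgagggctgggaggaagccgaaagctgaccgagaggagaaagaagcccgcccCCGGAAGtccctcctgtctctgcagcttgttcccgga
NDUFC1: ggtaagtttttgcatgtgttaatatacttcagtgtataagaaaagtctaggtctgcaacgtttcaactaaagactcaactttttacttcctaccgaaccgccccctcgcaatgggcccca
The windows are chr11:63974500-63974619 for COX8A, chr12:120437993-120438112 for COX6A1 and chr2:97645942-97646061 for COX5B, all on the plus strand, and chr4:139302552-139302671 on the minus strand for NDUFC1. The ETS letters begin 18 bases before the start in COX8A, 16 in COX6A1 and 37 in COX5B. COX5B has another ETS match, which begins 5 bases before the start and runs past the end of the window, so it is not in capitals.

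Fewer members were called in WT and dSAP. In 2D WT against control, 12 members were higher and 1 lower, that is 23.1% and 1.92% of members against 20.1% and 19.2% of all genes (39.3% in either direction). NDUFS8 rose most, from 84.7, 81.8 and 80.7 CPM to 112, 110 and 113 CPM (0.44 ± 0.06, adjusted p = 1.06e-05). NDUFB8 (0.33 ± 0.08), NDUFA6 (0.26 ± 0.09) and the complex III core subunits UQCRC1 (0.26 ± 0.06) and UQCRC2 (0.23 ± 0.09) rose too, and NDUFA2 fell by 0.26 ± 0.07. In log2(TPM + 1) the split was 3 higher and 3 lower, where 1980 of all 14986 genes were higher and 3252 lower. The count rests on single libraries: it was 23 without 3D dSRF library 1, which enters through the shared fit, and 8, 7 and 6 without 2D control library 1, 2D control library 2 and 2D WT library 2. Without 3D dSRF library 1, 15246 genes were tested. The matching shares of all genes are not given here or for the counts below with a library left out. Such moves therefore cannot be read as particular to the members. In 2D dSAP, 2 members were higher (NDUFS8 and SDHC) and 1 lower (NDUFA2), against 17.5% and 15.4% of all genes. In log2(TPM + 1) it was 3 and 3 (2276 and 1553 of all 14986 genes). Against WT in 2D, dSAP had 3 lower members (UQCRC1, COX4I1 and ATP5PD) and none higher (7.71% and 5.09% of all genes). On the log2(TPM + 1) scale it had 1 higher and none lower (1404 and 455 of all 14986 genes). Without 3D dSRF library 1 the counts were 11 for dSAP against control and 19 for dSAP against WT. Without 3D dSRF library 2 the former was 6, and without 2D dSAP library 3 the latter was 1.

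In 3D few members were called in WT and dSAP by the edgeR test, where the shares called lower lay below or near those of all genes. In 3D WT, 7 members (13.5%) were lower and 1 (1.92%) higher than in control. Of all genes, 17% and 18% were, and 35% in either direction. In log2(TPM + 1), 18 members were lower and none higher, where 2545 of all 14986 genes were lower and 1796 higher. On that scale the share of members lower was thus above that of all genes. In 3D dSAP, 7 (13.5%) were lower and 2 (3.85%) higher, against 13.1% and 16.5% of all genes (29.6% in either direction). COX7B was lower in both, with 47.8, 53.1 and 53.1 CPM in WT and 47.5, 54.0 and 53.7 CPM in dSAP against 67.3 to 70.6 CPM in control (-0.42 ± 0.09, adjusted p = 0.000822, and -0.41 ± 0.09, adjusted p = 0.00138). NDUFC2 was higher in both (0.20 ± 0.05 and 0.19 ± 0.05). These comparisons share their control libraries. The count for 3D WT was 20 without 3D dSRF library 1, 5 without 3D control library 1 or 2 or 3D WT library 1, and 4 without 3D WT library 3. The count for 3D dSAP was 21 without 3D dSRF library 1, and 5 without 3D control library 2 or 3 or 3D dSAP library 2 or 3. CYC1 was lower in 3D dSAP (-0.45 ± 0.14, adjusted p = 0.0208). Between dSAP and WT in 3D, 0 members passed the edgeR test in either direction (5.45% of all genes higher, 6.63% lower). At an unadjusted p under 0.05 there were 4, DESeq2 called 2 members lower, and 5 were called higher in log2(TPM + 1) (1125 of all 14986 genes).

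Many of the subunits were lower in 3D. In control cells 22 of 52 members (42.3%, against 24.4% of all genes) were lower in 3D than in 2D and 2 (3.85%, against 23%) higher. In WT the split was 38 lower and 1 higher (25.7% and 24.4% of all genes), and in dSAP 29 and 1 (23.5% and 24.2%). The median log2 fold change was -0.13 in control, -0.32 in WT and -0.25 in dSAP, against 0.00 to 0.01 over all genes. In log2(TPM + 1) the splits were 18 lower and 6 higher in control, 34 and 4 in WT, and 23 and 4 in dSAP. On that scale 2273, 2354 and 2216 of all 14986 genes were lower and 3735, 4146 and 3941 higher. The 22 members lower in control were all lower in WT and dSAP as well (57.9% of the WT set and 75.9% of the dSAP set). The matching overlap over all genes is not given for the lines either.

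Complex IV had the largest share of members that were lower in 3D. In control 8 of its 11 members were lower (median -0.27), in WT 10 (median -0.51) and in dSAP 9 (median -0.36), and none was higher. In complex I the counts were 9, 13 and 11 of 22, in complex III 3, 5 and 3 of 7, in complex V 2, 7 and 4 of 8, and in complex II 0, 3 and 2 of 4. Complex II was therefore the 1 complex with no member called in the control line, where its median was -0.10. The mean log2 CPM of the complex IV members in the 3D control libraries lay 0.22 to 0.30 below the 2D control mean, and that of complex II between 0.07 below and 0.01 above it.

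**Figure D4:**
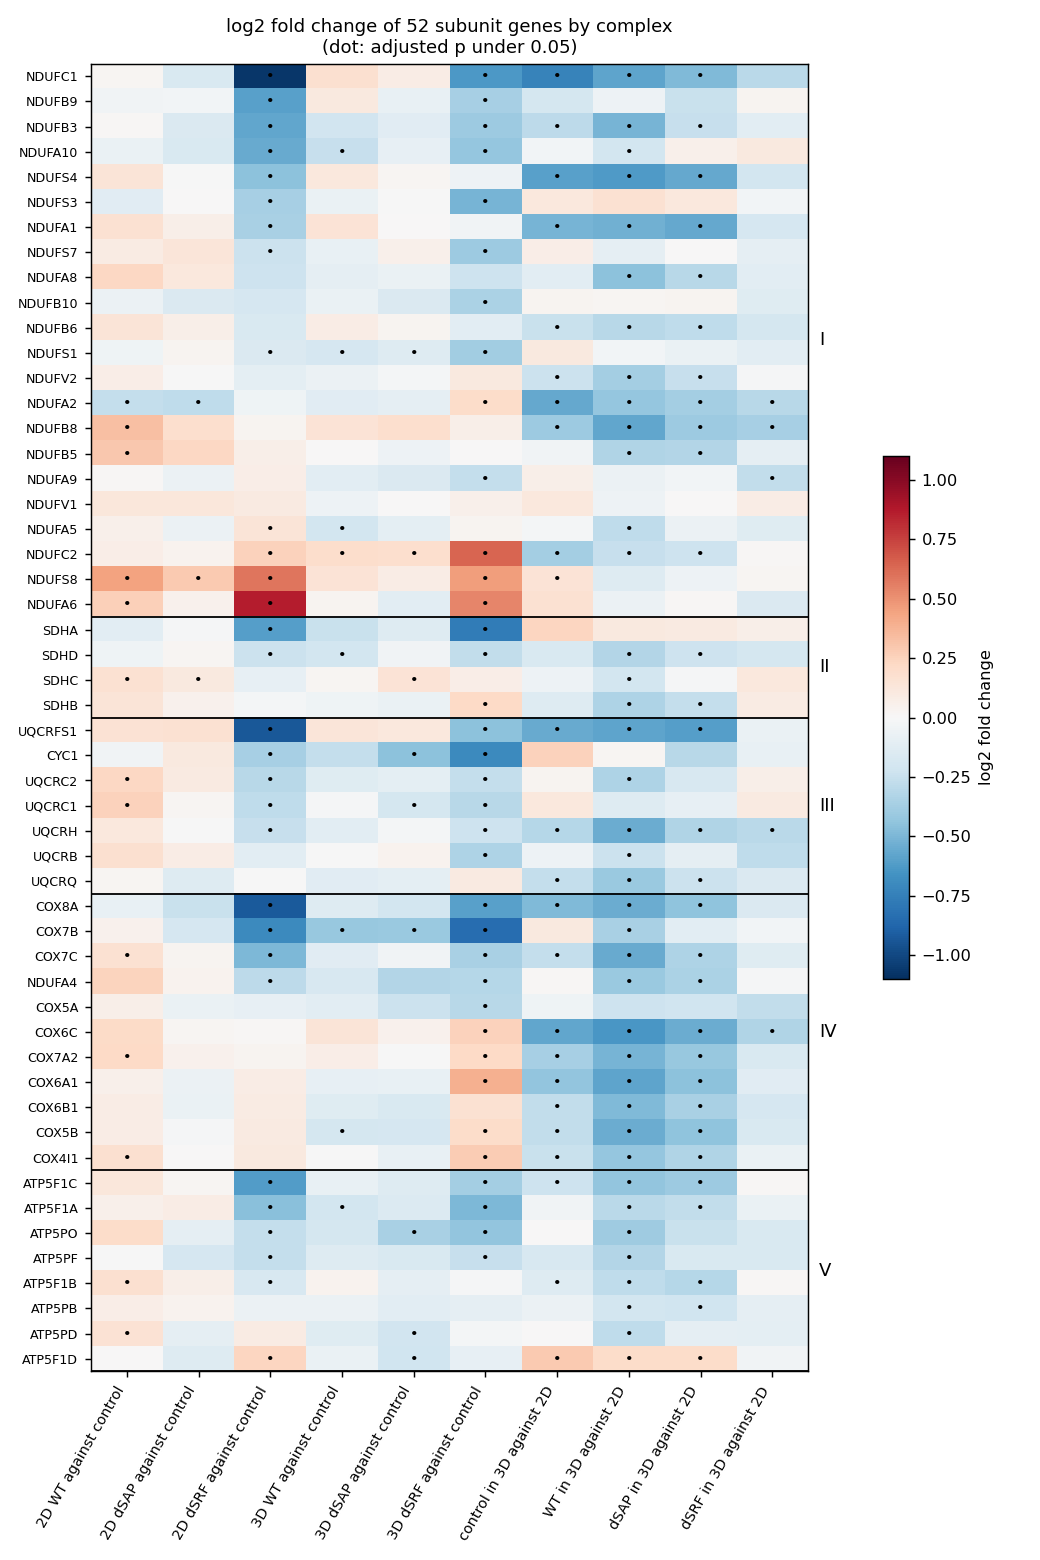
Log2 fold change (colour, blue lower and red higher) of the 52 members (rows, by complex) in 10 comparisons (columns), with a dot where the adjusted p was under 0.05. The columns of 3D against 2D in control, WT and dSAP are blue through most of complex IV, and ATP5F1D is red in these columns.

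COX6C, a small transmembrane subunit of complex IV, fell most within that complex. It held 55.6, 54.7 and 54.4 CPM in 2D control and 37.8, 39.8 and 33.6 CPM in 3D control, a log2 fold change of -0.57 ± 0.09 (adjusted p = 3.28e-05). The same comparison gave -0.64 ± 0.09 in WT and -0.54 ± 0.09 in dSAP. COX8A (-0.48 ± 0.09) and COX6A1 (-0.44 ± 0.05) were next in control. In complex I, NDUFC1 (-0.74 ± 0.13, adjusted p = 7.94e-05), NDUFS4 (-0.59 ± 0.08, adjusted p = 5.98e-06) and NDUFA2 (-0.56 ± 0.07, adjusted p = 2.24e-06) fell most in control. NDUFS4 is an accessory subunit that is mutated in Leigh syndrome. Its level was 46.3, 41.7 and 46.3 CPM in 2D control and 30.9, 30.4 and 27.9 CPM in 3D control, with the groups far apart. UQCRFS1 was the largest fall of complex III, from 123 to 140 CPM in 2D control to 88.2 to 95.3 CPM in 3D control (-0.55 ± 0.10), and again in WT (-0.58) and dSAP (-0.60).

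A pair of members went against this direction. ATP5F1D was higher in 3D in control (40.3, 41.3 and 39.7 CPM in 2D and 47.4, 48.9 and 51.5 CPM in 3D; 0.28 ± 0.08, adjusted p = 0.0042), in WT (0.20 ± 0.08, adjusted p = 0.0302) and in dSAP (0.20 ± 0.08, adjusted p = 0.0343). NDUFS8 was higher in control (0.15 ± 0.06, adjusted p = 0.0493), and its values of -0.14 in WT, -0.05 in dSAP and 0.02 in dSRF did not pass the test.

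Whether the effect of a line differed between the cultures was tested with an interaction term. For WT, 4 members had a lower effect in 3D and none a higher one (4.96% and 4.22% of all genes, 9.18% in either direction). COX7B was among them, with a difference of -0.46 ± 0.12 (adjusted p = 0.0221) between its change of 0.04 in 2D and -0.42 in 3D. For dSAP, 0 members passed in the edgeR and DESeq2 fits, against 1.13% of all genes higher and 1.2% lower (2.34% in either direction), and 6 had an unadjusted p under 0.05. For dSRF, 6 members had a higher and 4 a lower effect in 3D (14.7% and 14.6% of all genes, 29.2% in either direction). Without library 1 of 3D dSRF the split turned to 6 higher and 16 lower (19.9% and 24% of all genes).

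In the dSRF line 5 members were lower in 3D than in 2D and none higher (9.84% and 7.19% of all genes). They were COX6C, NDUFA2, NDUFB8, UQCRH and NDUFA9, and the first 4 were lower in all 4 lines. This small count depends on 1 library: without 3D dSRF library 1, 34 members were lower and 1 higher (28.4% and 19.8% of all genes), and 9 of 11 complex IV members were among the lower ones. Without 2D dSRF library 2 it was 3, and without 3D dSRF library 2 or 3 it was 2. NDUFB8 held 42.9, 44.2 and 43.7 CPM in 2D dSRF and 40.0, 29.3 and 32.4 CPM in 3D dSRF (-0.36 ± 0.08, adjusted p = 0.00554).

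Other subunits of the chain mostly pointed the same way. Of 26 other nuclear-encoded subunits, 14 (53.8%) were lower and 3 (11.5%) higher in 2D dSRF against control, where 31.5% and 34.5% of all genes were. In 3D it was 10 (38.5%) and 5 (19.2%), against 31.3% and 35.1% of all genes, and 16 and 4 without library 1. Against 2D, 15 (57.7%) were lower and 1 higher in 3D in control, 20 (76.9%) and 0 in WT, and 14 (53.8%) and 0 in dSAP, where 24.4%, 25.7% and 23.5% of all genes were lower. ATP5MC2, one of the genes for the c-ring of ATP synthase, fell most in 2D dSRF (-1.13 ± 0.12, adjusted p = 7.95e-08), and NDUFB2 rose there (0.63 ± 0.08, adjusted p = 1.05e-06). NDUFA12 fell most in 3D in control (-0.89 ± 0.10, adjusted p = 9.19e-07).

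The 13 subunits encoded by the mitochondrial genome pointed the other way across cultures. All 13 had a positive log2 fold change in 3D against 2D in control, WT and dSAP (medians 0.54, 0.68 and 0.85), and of these 2 (15.4%), 4 (30.8%) and 11 (84.6%) passed the test, against 23%, 24.4% and 24.2% of all genes higher. The share in control was thus below that of all genes. No such gene was called lower there. MT-CO1, the catalytic subunit of complex IV, stood at 3191, 2965 and 1434 CPM in 2D control and at 3315, 4062 and 5178 CPM in 3D control (0.73 ± 0.27, adjusted p = 0.0355). In WT it went from 2864, 2689 and 1867 CPM to 5200, 5305 and 5439 CPM (adjusted p = 0.00257). In 3D dSRF it held 1533, 2666 and 1717 CPM, and 7 of the 13 genes (53.8%, against 31.3% of all genes) were lower there than in 3D control and none higher (median -0.69). Without library 1 that number was 5 (median -0.54). These RNAs took 0.398% to 0.89% of counts within 2D control alone, where the nuclear members took 0.434% in each library.

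**Figure D5:**
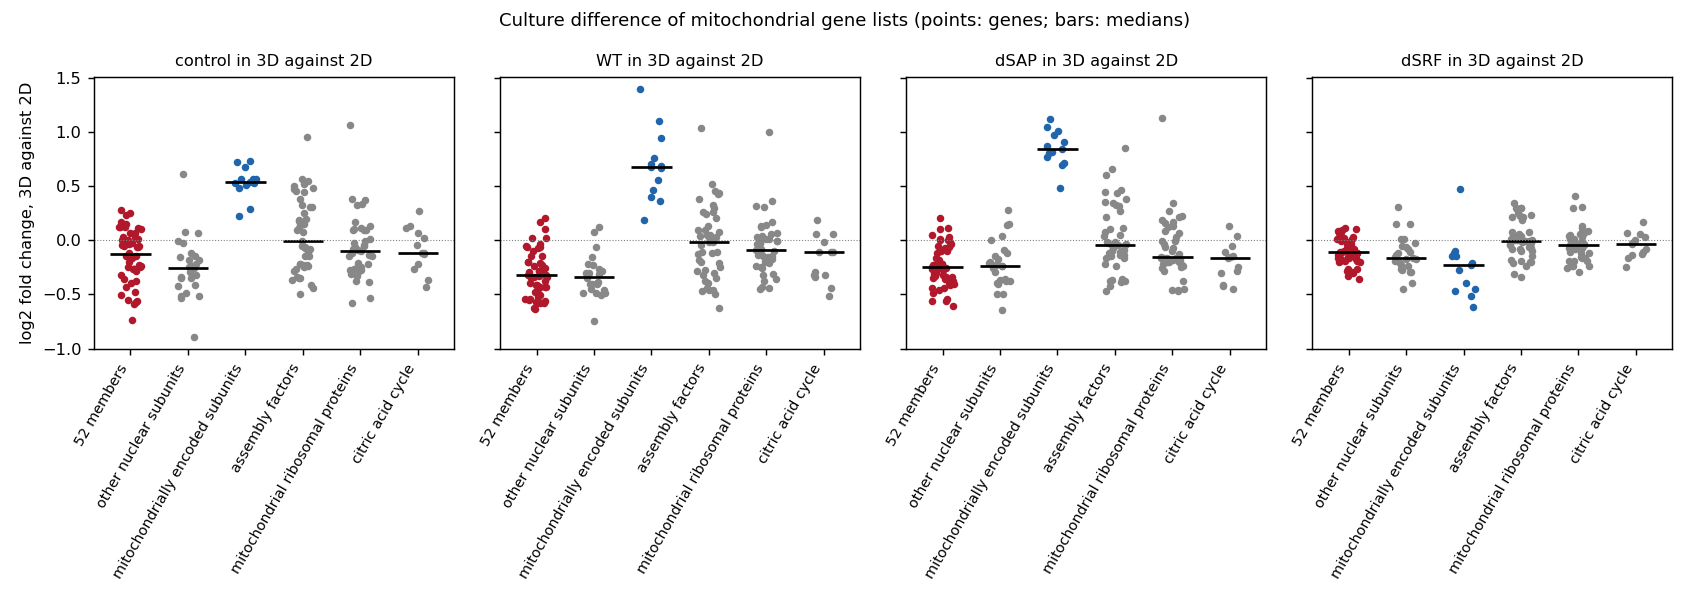
Log2 fold change in 3D against 2D (y axis) for the 52 members and for other gene lists (x axis) in the 4 lines (panels), each point 1 gene and each bar the median. The 52 members (red) have medians below 0 in all 4 lines, and the mitochondrially encoded subunits (blue) medians above 0 in control, WT and dSAP and below 0 in dSRF.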

How the data were processed

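RNA was measured by sequencing in 24 libraries made from total RNA with a stranded kit and rRNA depletion, per the labels' protocols, while the molecule field says polyA RNA. Per the submitters' processing notes, the authors used FastQC and Salmon with hg38. Neither annotation nor strand setting is stated. The authors deposited an estimated count per gene, not normalized, and a TPM value per gene, which is scaled by transcript length and library. Each expected count as deposited by the authors was rounded to a whole number here. Symbols came from a gene name list, with GENCODE 29 names where it held none, and positions came from GENCODE 29.

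The main test was the edgeR 4.0.16 quasi-likelihood test (R 4.3.3, robust) on 8 groups, with filterByExpr and TMM factors of 0.89 to 1.09. It had 16 residual degrees of freedom and a biological coefficient of variation of 13.1%. Calls used a Benjamini-Hochberg adjusted p under 0.05 over all 14986 tested genes, in 17 comparisons. Every adjusted p and SE comes from this model unless another tool is named or a library is said to be left out. Values with a library left out come from the same test refitted on the remaining libraries. Without 3D dSRF library 1 that refit tested 15246 genes. Alternatives were RLE scaling, no filter, DESeq2 1.42.0, limma 3.58.1 on log2(TPM + 1) and log2(TPM + 0.1), a replicate block, a fit of only the libraries compared, NDUFA4 counted in complex I, and each library left out. The fit was tested on simulated data.

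The rule for named members was up to 3 of the largest called rises and falls per complex and comparison, not exhaustively, the highest and lowest level per complex, and members called against the majority. Other lists name up to 4 genes with the lowest p in a comparison. NDUFS1, NDUFV1, SDHC, COX5B, COX7A2, ATP5PB and MT-CO1, where named outside this rule, were chosen after their values were seen. The members and lists were chosen with earlier results of these data known. Replicate numbers did not pair the libraries.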

Additional observations from a re-analysis of the deposited data

Results flagged for a closer look

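The effect of a line on 14 members differed between the cultures by the interaction term of the edgeR model. For WT, 4 members (4.96% of all genes did) had a lower effect in 3D than in 2D, and none a higher one. The differences in log2 fold change were -0.46 ± 0.12 (SE) for COX7B, -0.29 ± 0.08 for COX7C, -0.29 ± 0.08 for ATP5PD and -0.29 ± 0.09 for NDUFS8. NDUFS8 stood at 80.7 to 84.7 CPM in 2D control against 110 to 113 CPM in 2D WT, and at 86.0 to 97.7 CPM in 3D control against 97.4 to 104 CPM in 3D WT. The count was 17 without 3D dSRF library 1, 2 without 3D control library 1 or 2 or 3D WT library 3, 1 without 2D WT library 2 or 3, and 0 without 2D control library 2 or 3D WT library 1.

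For dSRF, 6 members had a higher effect in 3D (14.7% of all genes did) and 4 a lower one (14.6%). The differences were 0.48 ± 0.14 for UQCRFS1, 0.39 ± 0.12 for NDUFS4, 0.39 ± 0.07 for NDUFC2, 0.31 ± 0.07 for COX6A1, 0.22 ± 0.08 for NDUFV2 and 0.17 ± 0.06 for SDHC. They were -0.34 ± 0.10 for NDUFA9, -0.33 ± 0.12 for NDUFA6, -0.32 ± 0.11 for ATP5F1D and -0.22 ± 0.07 for NDUFS1. NDUFC2 and COX6A1 were lower in 3D than in 2D in control, WT and dSAP. In dSRF neither was called so with all libraries, COX6A1 was without 3D dSRF library 1 (-0.14 ± 0.05, adjusted p = 0.0241), and NDUFC2 held 118 to 131 CPM in 2D and 122 to 134 CPM in 3D. Without 3D dSRF library 1, 9 of the 10 kept their call and direction (NDUFV2 lost it), and 22 members were called, 6 higher and 16 lower (19.9% and 24% of all genes), so the direction of the majority turned. Among the lower ones were CYC1 (-0.68) and SDHA (-0.40). The UQCRFS1 and NDUFS4 differences fell to 0.28 and 0.27. The count was 6 without 2D control library 3 or 3D control library 1 or 3, and 5 without 2D dSRF library 1. The split was 4 higher and 1 lower in log2(TPM + 1) (1354 and 1984 of all 14986 genes). For dSAP, 0 members differed between cultures in the edgeR and DESeq2 fits.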

How the results depend on the processing

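The counts of called members for dSRF against control in 2D and for 3D against 2D in control, WT and dSAP stayed within 1.5 times under every setting tried. RLE scaling and DESeq2 moved no count by more than that except 3D dSAP against WT (0, then 1 and 2). Without the filter, 3D WT against control gave 5 (8), the WT effect 2 (4) and the dSRF effect 4 (10). In log2(TPM + 1) and in log2(TPM + 0.1), 2D WT and 2D dSAP against control each gave 6 (13 and 3), 2D dSAP against WT 1 (3), 3D WT against control 18 (8) and the dSRF effect 5 (10), and 3D dSAP against WT gave 5 and 3 (0). SDHC in 2D dSRF against WT reversed to 0.11 in both (-0.26). A fit of only the libraries compared gave 30 for 2D WT, 12 for 2D dSAP, 20 for 2D dSAP against WT, 16 for 3D WT, 21 for 3D dSAP, 19 for 3D dSRF against control, 9 for 3D dSAP against WT, 11 for 3D dSRF against WT, 0 for dSRF in 3D against 2D, and 20, 10 and 2 for the WT, dSAP and dSRF effects.

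Leaving out single libraries gave 6 to 23 members for 2D WT against control, 2 to 11 for 2D dSAP, 24 to 34 for 2D dSRF, 1 to 19 for 2D dSAP against WT, 29 to 41 for 2D dSRF against WT, 4 to 20 for 3D WT, 5 to 21 for 3D dSAP, 30 to 38 for 3D dSRF, 0 to 8 for 3D dSAP against WT and 25 to 45 for 3D dSRF against WT. For 3D against 2D it gave 19 to 31 in control, 34 to 44 in WT, 25 to 37 in dSAP and 2 to 35 in dSRF, and 0 to 17, 0 to 9 and 5 to 22 for the WT, dSAP and dSRF effects. The highest value was in each case without 3D dSRF library 1, which enters every comparison through the shared fit. Calls over all genes rose too where their shares are given, as for dSRF in 3D against 2D (from 9.84% to 28.4% lower). With the replicate block, 2D WT gave 11, control in 3D against 2D 21, 2D dSRF against WT 33 and the dSRF effect 9, and no count moved by over 1.5 times. Same-numbered libraries of 2 groups correlated at -0.131 to 0.122, so the numbers give no pairing. With NDUFA4 counted in complex I, the complex IV medians for dSRF against control were 0.02 in 2D and 0.18 in 3D (0.01 and 0.17). Of 177 named member results, 1 lost its call with RLE scaling, 1 with DESeq2, 27 without the filter, 37 in either TPM scale, 31 in a fit of only the libraries compared and 10 with the replicate block. The causes were not tested. The lowest count of any member in any library was 106, and the part of depth in these counts was not tested.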

Other observations

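In 2D dSRF against control 34.5% of all genes were higher and 31.5% lower, and in 3D 35.1% and 31.3% (37.2% and 35.6% without 3D dSRF library 1). Of 45 assembly factors, 14 (31.1%) were higher and 11 (24.4%) lower in 2D, and 16 (35.6%) and 12 (26.7%) in 3D, shares near those of all genes. Without library 1 the majority in 3D turned, with 12 higher and 19 lower. NDUFAF3, a complex I assembly factor, rose by 1.17 ± 0.08 (adjusted p = 2.46e-10) in 2D and 0.92 ± 0.08 in 3D, and TTC19, which serves complex III, by 0.71 and 0.99. COX20, which handles the mitochondrially encoded subunit MT-CO2, had a log2 fold change of -1.17 ± 0.10 in 2D and -1.81 ± 0.10 in 3D. HIGD1A, which associates with complex IV, stood at 108 to 121 CPM in 2D control and 196 to 203 CPM in 2D dSRF, and at 79.2 to 92.4 CPM in 3D control and 163 to 183 CPM in 3D dSRF (edgeR log2 fold changes 0.78 and 1.02). The 3D values without library 1 were 0.94 for NDUFAF3, 1.03 for TTC19, -1.96 for COX20 and 0.98 for HIGD1A.

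Among 12 regulators of mitochondrial biogenesis, 6 (50%) were higher and 3 (25%) lower in dSRF in each culture, and the same number without 3D dSRF library 1, beside the shares of all genes given above. PPARGC1A, the coactivator PGC-1alpha, stood at 6.51, 5.07 and 4.02 CPM in 2D control, 20.7, 20.4 and 19.2 CPM in 2D WT and 20.1, 18.4 and 18.4 CPM in 2D dSRF (log2 fold changes 1.94 ± 0.14 and 1.86 ± 0.14). In 3D the largest log2 fold change of any of the 12 against control was 0.615 in WT and 1.000 in dSRF (0.995 without library 1). The log2 fold change of PPARGC1A in 3D was thus at most these values, below its 2D value in both lines. Whether PPARGC1A rose in 3D is not given here. Its relative PPARGC1B was at 2.94 to 4.86 CPM in 2D control and 16.1 to 19.4 CPM in 2D dSRF. PPARGC1B was also higher in 3D than in 2D in control (1.85 ± 0.17), WT (1.36 ± 0.17) and dSAP (1.59 ± 0.18). The receptor gene ESRRA was higher in 2D dSRF (0.67 ± 0.07).

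Of 33 cytosolic ribosomal protein genes, 31 (93.9%) were lower in 2D dSRF and 33 (100%) in 3D dSRF than in control, with none higher, against 31.5% and 31.3% of all genes, and 32 in 3D without library 1. In 2D WT 13 (39.4%) were lower and in 2D dSAP 26 (78.8%), against 19.2% and 15.4% of all genes. Of 41 mitochondrial ribosomal protein genes, 9 (22%) were higher and 9 lower in 2D dSRF, both below the 34.5% and 31.5% of all genes. In 3D dSRF 13 (31.7%) were higher and 10 (24.4%) lower, against 35.1% and 31.3% of all genes. Without library 1, 8 (19.5%) were higher and 21 (51.2%) lower, against 37.2% and 35.6%. Of 13 citric acid cycle genes, 7 (53.8%) were lower and 2 (15.4%) higher in 2D dSRF, with SUCLA2 at -0.65 ± 0.08 and IDH3A at 0.49 ± 0.06. Of 15 genes for electron carriers and ubiquinone synthesis, 5 (33.3%) were lower and 4 (26.7%) higher there, with COQ8A at -0.99 ± 0.08.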
